A study of Homo sapiens with 34 samples.

Results

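Untreated BV-173 cells, a human B-cell acute lymphoblastic leukemia (B-ALL) line with the BCR-ABL fusion, were compared with NALM-6 cells, labelled with the ETV6-PDGFRB fusion, and RS4;11 cells, labelled with MLL-AF4. RNA of cells kept in DMSO, the solvent of the CDK4/6 inhibitor palbociclib, was sequenced after 3 days in 2 samples of BV-173 and 3 samples of each other line. These 8 samples of 34 were chosen by their labels alone. As a reading from other cultures, the 3 scrambled shRNA groups (3 samples per line, transduced with a lentiviral vector and sorted on day 4) were compared in the same way. All lines were grown in the same serum-supplemented medium, and each line is a culture derived from a single patient. The tables give 1 level per group over its samples, so no spread between samples could be computed and no test was run. The BCR-ABL fusion and everything else in which BV-173 differs from the other 2 lines cannot be told apart.

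BCR-ABL is a constitutively active tyrosine kinase made when the start of *BCR* on chromosome 22 is joined to most of *ABL1* on chromosome 9. In precursor B cells it signals through STAT5, RAS-ERK and PI3K, which normally act below cytokine receptors and the pre-B-cell receptor. STAT5 binds TTCNNNGAA sites in DNA and drives its own feedback inhibitors of the CISH and SOCS family, PIM kinases and cyclin D2.

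Levels are given in parts per 1000000 of the column sum (ppm), and the column sums of the 6 control groups lay between 18304146 and 19780113, with 14763 to 15944 genes listed per group. A deposited level under 3, which is about 0.15 to 0.16 ppm, was treated as the floor, and a fold against a group at the floor is given as a lower bound computed against a level of 3. Folds between lines are taken within the same control. Because each line's levels were scaled within that line's own table, a fold between lines also carries any difference in scaling. The median log2 ratio of BV-173 to the geometric mean of the other lines over 13307 genes was -0.12 with DMSO and -0.17 with scrambled shRNA, and scaling by the median of ratios brought it to 0.00 and 0.01. Depth per sample is unknown.

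Of 13788 genes listed in all 3 DMSO tables, BV-173 stood at least 2-fold above the geometric mean of the other lines for 1501 (10.9%) and at least 2-fold below it for 2255 (16.4%). Of these, 3440 were listed in all 6 tables, and 3254 (94.6%) had the same sign with scrambled shRNA. A geometric mean can hide opposite lines: *PTPRC*, the CD45 phosphatase of blood cells, was at 13.7 ppm in BV-173, 0.329 in NALM-6 and 568 in RS4;11, a log2 ratio of 0.00. Genes were therefore called set apart where BV-173 was at least 2-fold above, or below, each other line with both controls. This held for 393 genes higher in BV-173 (2.95% of 13307) and 944 lower (7.09%). By the same rule, NALM-6 had 631 genes higher and 742 lower, and RS4;11 had 923 higher and 398 lower. BV-173 was the line with the most genes set apart lower, and 367 of its 944 were at the floor in both of its control groups. Over all genes, the log2 ratio with DMSO minus that with scrambled shRNA had a median of 0.09, a 5th percentile of -0.65 and a 95th percentile of 1.40. For the 9963 genes of at least 10 ppm, the 5th and 95th percentiles were -0.49 and 0.91. A log2 ratio within these ranges is no larger than the spread between the 2 kinds of control. That spread also carries the vector, the sorting and the day, and it is not a spread between samples.

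The gene with the largest least gap above the other lines was *JCHAIN* (chr4:70655541-70666508), which encodes the joining chain of secreted IgM and IgA. Its level in BV-173 was 2393 ppm with DMSO and 2586 with scrambled shRNA. In the other lines it was between 0.422 and 0.760 in all 4 groups, so that even the smallest of the 4 folds was 3404. The 2 BV-173 groups did not overlap with the 4 groups of the other lines, but the gene was picked for this gap.

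Several of the 15 genes ranked highest were at the floor in every group of the other lines. *MTAP*, the methylthioadenosine phosphorylase of methionine salvage, was at 78.7 ppm with DMSO and 68.0 with scrambled shRNA, at least 415-fold higher than in either other line. *TFEC*, a transcription factor of the MITF family, was at 182 and 164, at least 998-fold higher. *LRRC61* at 26.4 and 26.2, *PAWR* at 52.0 and 47.0 and *CYBB* at 25.1 and 38.9 showed the same pattern, and so did *OPRK1*, *COL24A1*, *FOCAD* and *VCAN*. *PAWR* encodes a pro-apoptotic protein and *CYBB* the catalytic subunit of the phagocyte NADPH oxidase. *VCAN*, the matrix proteoglycan versican, was the least even of them, at 30.1 with DMSO and 11.6 with scrambled shRNA.

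Among the same 15 were ion channel, muscle, kinase and receptor genes. *KCNK12*, a potassium channel subunit, was at 269.7 and 304 ppm in BV-173, at least 1749-fold above the other lines. *LDB3*, a protein of the sarcomere, was at 58.1 and 61.2 against 0.0369 to 0.335. *MYLK3*, the cardiac myosin light chain kinase, was at 773 and 972 against 0.404 to 0.526 in the other lines. *OSMR*, the oncostatin M receptor, was at 313 with DMSO and 100.1 with scrambled shRNA. These BV-173 groups differed from each other and both lay at least 460-fold above the other lines. *AHR*, the ligand-activated aryl hydrocarbon receptor, was at 30.6 and 22.8 in BV-173 and at the floor elsewhere. Its repressor and target *AHRR*, chosen after its values were seen, was at 82.2 and 107 in BV-173 and between 0.994 and 2.08 in the other lines, while its partner *ARNT* was at 51.1 to 59.6 in BV-173 and 59.7 to 88.4 elsewhere. *BANK1*, a B-cell scaffold protein, and *LTB*, lymphotoxin beta, were also picked after their values were seen. *BANK1* was at 211 and 173.4 in BV-173 and at most 1.51 elsewhere, and *LTB* was at 27.8 and 28.3 against at most 0.841.

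**Figure D1:**
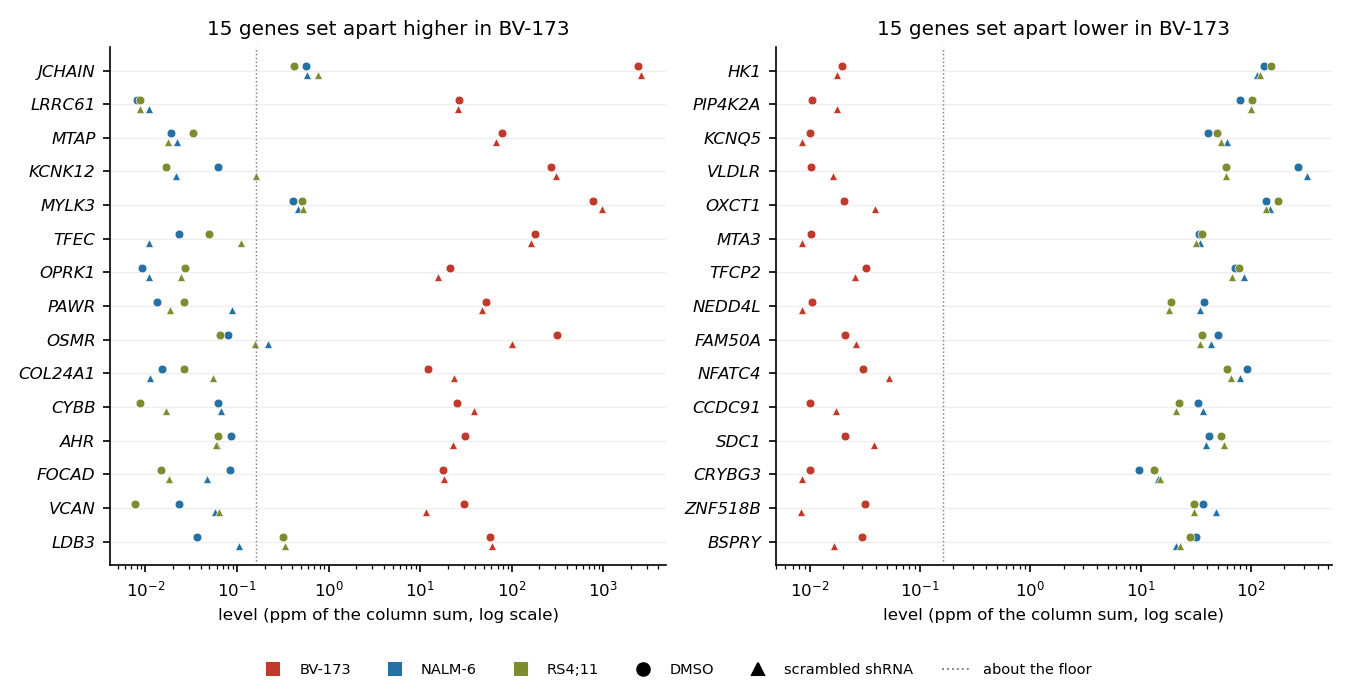
Levels of the 15 genes ranked higher (left) and the 15 ranked lower (right) in BV-173, in ppm of the column sum on a log axis, with 1 point for each line and control and a dotted line at about the floor. The BV-173 points of the left panel sit between 11.6 and 2586 and those of the right panel all sit under the floor.

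The 15 genes ranked lower were all at the floor in both BV-173 controls and above it in every group of the other lines. Hexokinase 1, encoded by *HK1* (chr10:69270000-69401882), phosphorylates glucose at the entry to glycolysis. Its level was 0.0195 and 0.0176 ppm in BV-173, between 113 and 150.3 in the other lines, and so at least 726-fold lower. The paralog *HK2* was at 137 and 148 in BV-173, against 61.5 to 184 in the other lines, and *HK3* was at or near the floor in all groups. BV-173 thus had *HK2* without *HK1*, while the other lines had both.

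A like pattern, read after the values were seen, held for other enzymes and regulators whose paralog was present. *PIP4K2A*, a phosphatidylinositol phosphate kinase, was at the floor in BV-173 and at 80.0 to 101 elsewhere, whereas *PIP4K2B* was at 118.5 and 109 in BV-173 and 109 to 132 elsewhere. *MTA3*, a subunit of the NuRD chromatin complex, was at the floor in BV-173 and at 31.7 to 36.2 elsewhere. The subunits *MTA1* and *MTA2* were between 172 and 216 in BV-173. *TFCP2*, a transcription factor, was at the floor in BV-173 and at 67.0 to 87.0 elsewhere, with its relative *UBP1* at 129.8 and 159 in BV-173. *FAM50A* on chromosome X was at the floor in BV-173 and at 34.4 to 49.7 elsewhere, and *FAM50B* on chromosome 6 was listed only in BV-173, at 7.25 and 6.88.

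*OXCT1*, the mitochondrial enzyme that lets cells burn ketone bodies, was at least 880-fold lower in BV-173 than in the other lines, where it was at 137 to 174. *VLDLR*, a lipoprotein receptor, was at the floor in BV-173, at 264 and 319 in NALM-6 and at 59.7 and 59.6 in RS4;11. *SDC1*, the CD138 proteoglycan that marks plasma cells, was at the floor in BV-173 and at 38.9 to 56.9 elsewhere, so the 2 plasma-cell genes *JCHAIN* and *SDC1* stood apart in opposite directions. The others of the 15 were *KCNQ5*, *NEDD4L*, *NFATC4*, *CCDC91*, *CRYBG3*, *ZNF518B* and *BSPRY*, with levels of 9.68 to 92.2 in the other lines. Genes at the floor in one line were no peculiarity of BV-173. Counting genes at the floor in both controls of a line and at 10 ppm or more in every control group of the other lines, BV-173 had 36, NALM-6 36 and RS4;11 17. Of the 36 in BV-173, 33 were also at the floor with palbociclib and with *CCND3* shRNA. The reverse, a gene at 10 ppm or more in both controls of one line and at the floor in the others, was met by 12 genes in BV-173, 15 in NALM-6 and 19 in RS4;11.

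The genes joined in BCR-ABL were not set apart. *ABL1* (chr9:130713043-130887675) was at 222 ppm with DMSO and 197 with scrambled shRNA in BV-173, 121 and 135 in NALM-6, and 144 and 163 in RS4;11. BV-173 was the highest of the 3 lines with both controls, by 1.21- to 1.84-fold. *BCR* (chr22:23180509-23318037) was at 205 and 196 in BV-173, at 386 and 333 in NALM-6 and at 213 and 239 in RS4;11. BV-173 was the lowest with both controls, by 1.04- to 1.89-fold. A level per gene does not separate fusion from normal transcripts.

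Of 12 STAT5 targets and feedback genes listed in all 6 tables, 6 were set apart higher in BV-173 and none lower, beside 2.95% of all genes higher. The median log2 ratio of the list was 1.86 with DMSO and 0.91 with scrambled shRNA, against -0.12 and -0.17 over all genes. *CISH* (chr3:50606489-50611774), the classical STAT5 feedback inhibitor, was at 51.9 and 33.7 ppm in BV-173, 13.3 and 10.4 in NALM-6 and 4.64 and 5.75 in RS4;11. The smallest fold of BV-173 over another line was 3.24, where the rule for genes set apart already asks for at least 2. Its promoter is shown because it holds several STAT5-type sites, with those of *BCL6*, which STAT5 represses and which carries as many. The windows are RefSeq sequences of GRCh38.p14, 250 bases before to 50 after the gene's start, on the minus strand, at chr3:50611725-50612024 and chr3:187745419-187745718, with each TTCNNNGAA in capitals.
CISH: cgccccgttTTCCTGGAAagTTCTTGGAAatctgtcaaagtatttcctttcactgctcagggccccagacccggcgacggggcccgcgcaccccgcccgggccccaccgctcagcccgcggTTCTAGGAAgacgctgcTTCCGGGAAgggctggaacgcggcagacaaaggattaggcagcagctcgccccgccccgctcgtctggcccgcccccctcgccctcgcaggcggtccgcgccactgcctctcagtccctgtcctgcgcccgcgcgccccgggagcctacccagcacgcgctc
BCL6: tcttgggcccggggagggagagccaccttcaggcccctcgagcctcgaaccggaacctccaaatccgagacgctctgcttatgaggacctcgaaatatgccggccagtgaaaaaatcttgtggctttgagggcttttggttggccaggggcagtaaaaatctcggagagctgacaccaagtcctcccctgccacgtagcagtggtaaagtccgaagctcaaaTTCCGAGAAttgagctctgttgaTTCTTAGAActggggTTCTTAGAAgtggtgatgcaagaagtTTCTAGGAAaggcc

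Each window held 4 matches to TTCNNNGAA, a motif that reads the same on both strands, and matches did not overlap. Of 35116 promoter windows of that length, 7.66% held at least 1 match and 7 held at least 4. Of the 9 list genes with a window, *CISH* and *BCL6* alone held a match, *BCL6* in the window shown. The windows of *SOCS1*, *SOCS3*, *PIM1*, *PIM2*, *BCL2L1*, *IL2RA* and *ID1* held none, and *SOCS2*, *CCND2*, *OSM* and *MYC* had no window. Among genes with a window, a match stood in 24 of 230 set apart higher (10.4%), in 77 of 739 set apart lower (10.4%) and in 832 of 9871 others (8.43%). A match is a run of letters and was not tested for binding.

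The pair with 4 sites differed in level: unlike *CISH*, *BCL6*, the germinal center repressor, was at 16.2 ppm in BV-173 with DMSO, near the 15.1 of NALM-6 and under the 141 of RS4;11. With scrambled shRNA it was at 41.2 in BV-173, 57.0 in NALM-6 and 118 in RS4;11. The cytokine signal inhibitor *SOCS1* was at 10.3 and 9.12 in BV-173 and at most 4.15 elsewhere. Its relative *SOCS2* was at 784 and 627 in BV-173 and at 205 and 242 in NALM-6, while both RS4;11 groups were at the floor. *SOCS3* was low in all lines, at 0.453 and 0.846 in BV-173 and at the floor elsewhere. Of the PIM kinases, which promote survival, *PIM2* was at 171 and 108 in BV-173 and between 24.2 and 47.7 in the other lines. *PIM1* was at 113 in BV-173 with DMSO, above 46.6 and 37.4, but at 51.2 with scrambled shRNA it was level with the 50.4 of RS4;11. *BCL2L1*, *OSM*, *ID1* and *MYC* did not pass the rule either, and *IL2RA* was not listed in all tables. *MYC*, for example, was at 1153 and 636 in BV-173 and at 1044 and 876 in NALM-6.

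The pathway's own members were read in the same groups, by RNA level alone. Of 10 JAK-STAT5 components, none was set apart higher in BV-173 and 1 (10%) lower, beside 2.95% and 7.09% of all genes. In a list of this size, these counts are near the shares over all genes. *STAT5A* was at 34.1 and 32.4 ppm in BV-173, 67.3 and 39.3 in NALM-6 and 78.9 and 74.2 in RS4;11, and *STAT5B* was at 96.8 to 131 in all 6 groups. *IL7R*, the receptor for interleukin-7, was lowest in BV-173, at 136 and 192 against 196 to 441. *CRLF2*, the receptor for thymic stromal lymphopoietin, was set apart lower and stood at the floor in BV-173, but no group exceeded 4.26.

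**Figure D2:**
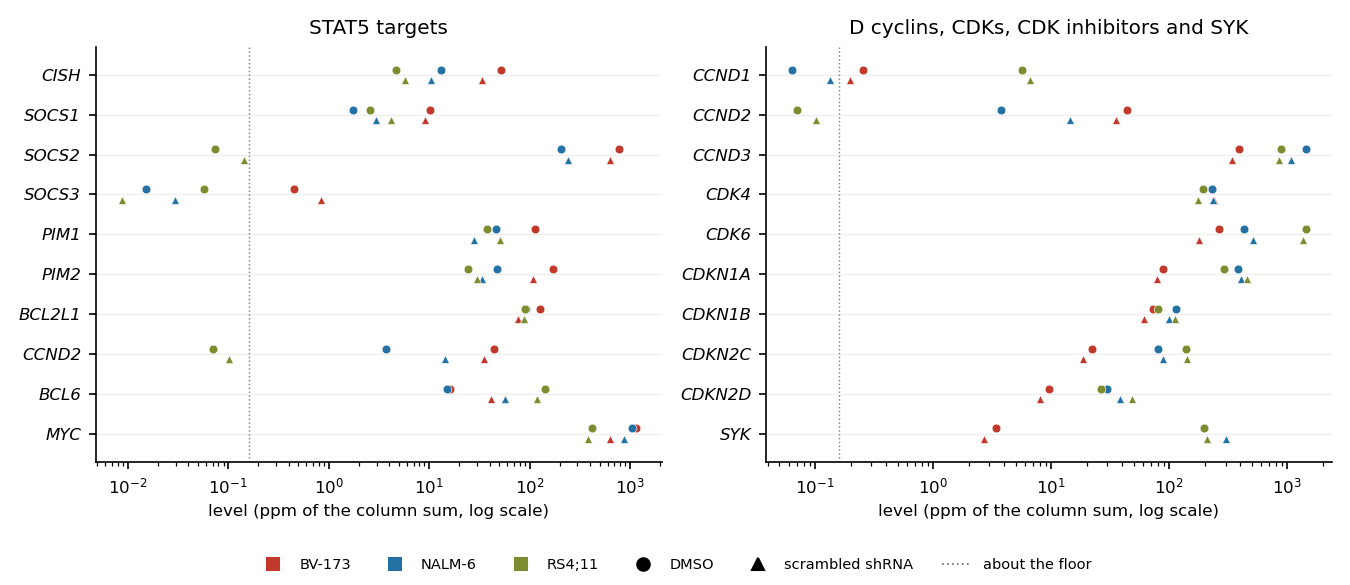
Levels of STAT5 targets (left) and of D cyclins, their kinases, CDK inhibitors and *SYK* (right), in ppm of the column sum on a log axis, with 1 point for each line and control and a dotted line at about the floor. BV-173 is the highest line for *CISH*, *SOCS2*, *PIM2* and *CCND2* and the lowest for *CCND3*, *CDKN1A*, *CDKN2C*, *CDKN2D* and *SYK*.

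D cyclins activate CDK4 and CDK6, which phosphorylate RB1 and open the way into S phase. *CCND2* (chr12:4273762-4305353) was set apart higher in BV-173, at 44.3 and 35.2 ppm, with 3.74 and 14.4 in NALM-6 and the floor in RS4;11. *CCND3* (chr6:41934933-42050035) was set apart lower, at 387 and 342 in BV-173, 1447 and 1065 in NALM-6 and 881 and 849.6 in RS4;11. Within the same control the smallest fold of *CCND3* was 2.28, where the rule for genes set apart already asks for at least 2. Per kilobase of transcript, *CCND3* still exceeded *CCND2* within BV-173, by 27.1-fold with DMSO and 30.1-fold with scrambled shRNA, compared with 1195-fold and 229-fold in NALM-6. *CCND1* was at 0.256 and 0.197 in BV-173, close to the floor, and at 5.68 and 6.61 in RS4;11.

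Of the 15 D cyclins, CDKs and CDK inhibitors listed, 1 was set apart higher and 4 lower, beside 2.95% and 7.09% of all genes. The other 3 lower genes were CDK inhibitors. *CDKN1A*, which encodes p21, was at 88.0 and 79.1 ppm in BV-173 and at 293 to 458 in the other lines. *CDKN2C*, encoding p18, was at 22.1 and 18.8 against 80.9 to 141. *CDKN2D*, encoding p19, was at 9.58 and 8.12 against 26.4 to 48.1. *CDKN1B*, encoding p27, was at 72.5 and 60.8 against 81.0 to 115 and did not pass the rule. The kinases were closer: *CDK4* was at 232 and 239 in BV-173 and 176 to 236 elsewhere, and the Mediator kinase *CDK8* was at 52.3 and 38.8, within the 31.4 to 56.1 of the other lines. *CDK6* was lowest in BV-173, at 265 and 179, with 433 and 507 in NALM-6 and 1427 and 1349 in RS4;11. *RB1* was at 308 and 208 in BV-173, between 199 and 318 elsewhere. None of 21 proliferation genes was set apart, and their median log2 ratio was -0.47 with DMSO and -0.12 with scrambled shRNA.

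Among 15 SRC, SYK and TEC family kinases and their regulators, none was set apart higher and 2 (13.3%) lower, beside 2.95% and 7.09% of all genes. *SYK* (chr9:90801600-90898549), the kinase that carries the pre-B-cell receptor signal, was at 3.44 and 2.71 ppm in BV-173. It was at 195 and 303 in NALM-6 and at 198 and 208 in RS4;11, so the smallest fold was 56.8. Its relative *ZAP70* was at 49.96 and 60.5 in BV-173, between NALM-6 at 31.9 and 45.3 and RS4;11 at 111 and 136. *SRC* was at 1.86 and 2.61 in BV-173 and at 3.86 to 21.4 elsewhere. *BTK* was at 230.3 and 206 in BV-173, above the 165 to 187 of the other lines by less than the fold required, and *LYN* in BV-173 was level with RS4;11.

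None of 12 genes of the pre-B-cell receptor and V(D)J recombination was set apart, beside 2.95% of all genes higher and 7.09% lower. In a list of this size, that is near the shares over all genes. The list's median log2 ratio was 0.46 with DMSO and -0.11 with scrambled shRNA. *IGLL1*, the surrogate light chain, was at 885 and 842 ppm in BV-173 and 469 to 736 elsewhere. *BLNK*, the adaptor that SYK phosphorylates, was at 120.3 and 66.8 in BV-173, 228 and 177 in NALM-6 and 4.56 and 4.72 in RS4;11. *RAG1*, the recombinase subunit, was lowest in BV-173, at 183 and 150.2, with 1292 and 834 in NALM-6 and 287 and 199.5 in RS4;11. *IGLL5* and *IGLL1* are near copies, and their reads may have been split between them.

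The median log2 ratio of 21 PI3K and FOXO genes was -0.08 with DMSO and -0.29 with scrambled shRNA. *AKT1*, the kinase that PI3K switches on, was at 178 and 183 ppm in BV-173, between NALM-6 at 149 and 134 and RS4;11 at 296 and 276, and *AKT2* was lowest in BV-173 without passing the rule. *FOXO1* (chr13:40555667-40666641), the transcription factor that PI3K-AKT signaling excludes from the nucleus, was at 80.6 and 86.5 in BV-173, between NALM-6 at 252 and 302 and RS4;11 at 16.4 and 18.2. Of 15 ERK feedback genes, *SPRED3* was set apart higher, and *DUSP4*, *SPRY1* and *PHLDA1* lower, where 2.95% and 7.09% of all genes were. *SPRY1*, an inhibitor of receptor tyrosine kinase signaling, was at 1.99 and 1.30 in BV-173 and at 11.5 to 23.4 elsewhere. *DUSP6*, the phosphatase that switches ERK off, was at 245 in BV-173 with DMSO, above 34.2 and 164, but at 72.7 with scrambled shRNA, where NALM-6 was at 72.6 and RS4;11 at 122.

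B-lineage identity was present in all 3 lines. The 24 B-lineage transcription factors summed to 6064 and 5494 ppm in BV-173 and to 5969 to 6279 in the other lines. *PAX5*, the B-cell commitment factor, was at 615 and 536 in BV-173, and *EBF1* was at 265 and 249, neither set apart. *IKZF2* and *IKZF3* were set apart higher and *POU2F2* lower, against shares of 2.95% and 7.09% over all genes. *IKZF2*, which encodes Helios, was at 524 and 482 in BV-173, 99.98 and 136 in NALM-6 and 25.9 and 24.6 in RS4;11. *IKZF3*, which encodes Aiolos, was at 15.3 and 25.5, at least 4.09-fold above the other lines. *IKZF1*, the founding Ikaros gene, was lowest in BV-173, at 115 and 90.7 with 199 to 383 elsewhere, though not by enough to pass the rule.

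Of 24 surface antigens, 3 were set apart higher and 3 lower (12.5% each), beside 2.95% and 7.09% of all genes. *MS4A1*, encoding CD20, was at 10.6 in BV-173 with DMSO and 82.9 with scrambled shRNA, against 0.233 to 8.10 elsewhere. Its levels differed between the 2 controls in NALM-6 as well, from 0.233 to 8.10, and BV-173 was the highest line with each control. *CD52* was at 245 and 219, against 9.82 and 9.27 in NALM-6 and 84.6 and 90.5 in RS4;11. *CD33*, a myeloid sialic acid receptor, was at 53.3 and 59.0, against 4.58 to 16.5. *CD72*, an inhibitory B-cell receptor on chromosome 9, was at 6.01 and 3.12 in BV-173 and at 56.2 to 187 elsewhere, and *TNFRSF13C* and *TSPAN7* were lower as well. *MME*, encoding CD10, was at 431 and 325, under NALM-6 at 1059.7 and 1180.3 and far above RS4;11 near the floor.

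Markers of other blood lineages were looked at in the same groups. Of 16 myeloid markers, *CD33* and *CSF2RA* were set apart higher and *CEBPE*, *CTSG*, *FCER1G* and *CST3* lower, beside 2.95% and 7.09% of all genes. The same shares stand beside the 2 lists that follow. The summed level of the myeloid list was 273 and 260 ppm in BV-173, 129 and 154 in NALM-6 and 186 and 223 in RS4;11. The defining granule gene *MPO* was at 0.433 to 1.49 in all 6 groups, and *AZU1* was at the floor in all of them. Of 8 T and NK markers, *TCF7* and *GZMA* were set apart lower, and the summed level of the list was 44.5 and 37.3 in BV-173, 46.8 and 37.0 in NALM-6 and 81.8 and 89.9 in RS4;11. Of 5 erythroid and megakaryocyte markers, *ITGA2B* was set apart lower, and the summed level, most of it *GYPC*, was 132 and 100.04 in BV-173, 30.8 and 24.2 in NALM-6 and 219.9 and 231 in RS4;11. The part of other cell types in the differences was not tested.

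The remaining lists held at most 3 genes set apart in either direction, and over all genes 2.95% were higher and 7.09% lower. Of 18 interferon-stimulated genes, none was set apart higher and *IFI6*, *IFIT3* and *OAS3* (16.7%) were lower, with a median log2 ratio of -1.04 with DMSO and -1.42 with scrambled shRNA. *OAS3*, a sensor of double-stranded RNA, was at 3.29 and 2.47 ppm in BV-173, 58.6 and 76.0 in NALM-6 and 128 and 125 in RS4;11. *IFI6*, an antiviral membrane protein, was at 1.40 and 1.60 and at 8.29 to 17.9 elsewhere. Of 21 homing and adhesion genes, *ITGAL*, the integrin chain of LFA-1, was at 163 and 304 in BV-173, 0.218 and 0.555 in NALM-6 and 14.7 and 31.1 in RS4;11. *CCR6* was set apart higher as well, and *S1PR1*, which guides exit from lymphoid tissue, lower, at 0.413 and 0.888 against 1.97 to 8.30. Of 15 BCL2 family genes, *BIK*, a killer protein with only a BH3 domain, was lower, at 1.22 and 0.870 against 7.66 to 14.5. Among MHC class II genes *HLA-DOB* was higher and *HLA-DOA* lower of 12, and among MHC class I genes *HLA-F* was lower of 13.

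MLL fusions such as that of RS4;11 are known to drive HOXA genes. Of 11 MLL fusion targets listed in all tables, *RUNX2* was set apart higher and *PBX3* and *CPEB2* lower in BV-173, beside 2.95% and 7.09% of all genes. *HOXA9* was at 86.3 and 120.4 ppm in RS4;11 and unlisted or at the floor in both BV-173 and NALM-6. None of 5 stem and progenitor genes was set apart. *FLT3*, the receptor of early progenitors, was at 169 and 119.5 in BV-173, between NALM-6 near 3.54 and RS4;11 at 345 and 396. Of 16 reference genes, *TFRC*, the transferrin receptor, was set apart lower, at 49.6 and 99.0 against 203 to 382, and the list's median was -0.12 with DMSO and 0.02 with scrambled shRNA.

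The rule for genes set apart does not use position on the chromosome. The median log2 ratio with DMSO, over all genes of a chromosome, was 0.91 on chromosome 8, -0.61 on chromosome 9 and -0.45 on chromosome 15. The other chromosomes lay between -0.19 and 0.04. With scrambled shRNA the 3 medians were 0.72, -0.79 and -0.51, and the others lay between -0.23 and 0.00. On chromosome 15, the ratio was -0.19 to NALM-6 and -0.74 to RS4;11, so that most of it came from RS4;11. The ratio to each other line had the same sign on all 3 chromosomes. To NALM-6 and RS4;11 it was 1.17 and 0.62 on chromosome 8 and -0.51 and -0.71 on chromosome 9. A whole-chromosome median can hide shorter stretches, read here over genes of at least 10 ppm in some line. On chromosome 1, 45 genes from 220 to 230 Mb had medians of 0.54 and 0.49 with the 2 controls. They are part of a longer stretch, as each 10 Mb window from 200 to 250 Mb had a DMSO median of 0.23 to 0.57. On chromosome 7, 37 genes from 70 to 80 Mb had a median of -0.53 with both. With DMSO this was -1.16 to RS4;11 and 0.17 to NALM-6. The 10 Mb windows of chromosome 7 before 60 Mb went the other way to RS4;11. Their DMSO medians were 0.78 to 1.01 to RS4;11 and -0.33 to -0.03 to NALM-6.

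**Figure D3:**
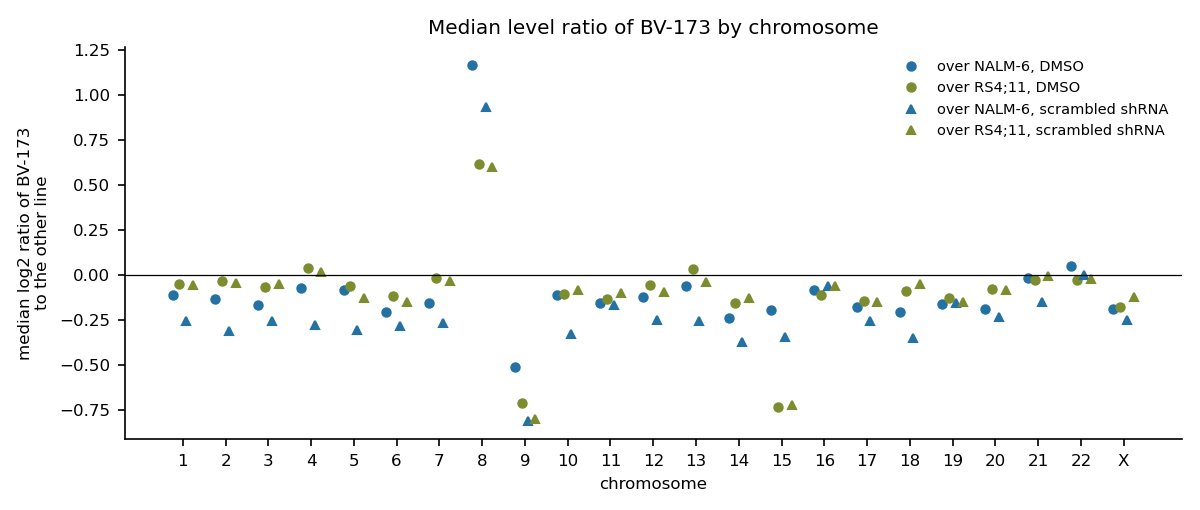
Median log2 ratio of BV-173 to each other line by chromosome, with DMSO and with scrambled shRNA. The points of chromosome 8 sit between 0.60 and 1.17, and those of chromosome 9 between -0.81 and -0.51. Chromosome 15 spans -0.74 to -0.19, and the points of the other chromosomes lie between -0.37 and 0.05.

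The median on chromosome 9 differed before and after *ABL1*. Stretches were read over genes of at least 10 ppm in some line, among which 2.51% were set apart higher and 5.12% lower. On 9q before *ABL1*, 214 genes had a median log2 ratio of -1.08 with DMSO and -1.15 with scrambled shRNA. Of these genes 93.5% were below 0 with both controls, 58 (27.1%) were set apart lower and none higher. The last 10 Mb before *ABL1* held 93 genes with medians of -1.19 and -1.17. After *ABL1*, 83 genes had medians of 0.14 and 0.20, and 27.7% were below 0 with both controls. On 9p, 98 genes had medians of -0.30 and -0.32. *SYK* and *PBX3* lie in the 9q stretch before *ABL1*.

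Nearest to *ABL1*, levels were read gene by gene. *EXOSC2*, a subunit of the RNA exosome next before *ABL1*, was at 30.3 and 42.2 ppm in BV-173 and at 49.3 to 70.9 elsewhere. *FUBP3* was at 45.2 and 53.0 against 70.6 to 118. *ASS1*, the argininosuccinate synthase of the urea cycle, was an exception before *ABL1*, at 536 and 588 in BV-173, 281 and 254 in NALM-6 and 432 and 916 in RS4;11. Beyond *ABL1*, the nuclear pore gene *NUP214* was at 102 and 115 in BV-173, 70.2 and 88.9 in NALM-6 and 100.1 and 104 in RS4;11, so that BV-173 was the highest line. *POMT1*, a protein mannosyltransferase, was at 29.4 and 35.2 in BV-173, with 9.23 to 20.2 elsewhere. The signaling gene *RAPGEF1* was an exception beyond *ABL1*, lowest in BV-173 at 108 and 94.2 with 163 to 212 elsewhere. *MED27*, a Mediator subunit, had log2 ratios of -0.67 and -0.15 there, and *FNBP1*, before *ABL1*, had only -0.30 and -0.32. On chromosome 22 the pattern around *BCR* was smaller: 56 genes before it had a median of 0.43 with both controls, and 202 genes after it had medians of -0.01 and 0.00.

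**Figure D4:**
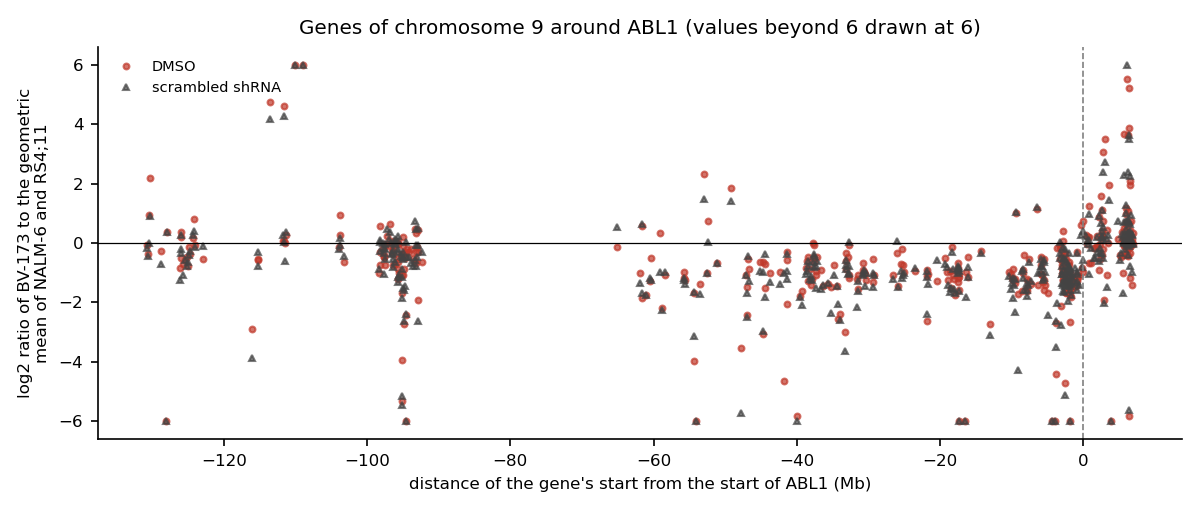
Log2 ratio of BV-173 to the geometric mean of the other lines for genes of chromosome 9, against distance from the start of *ABL1* in Mb. Points are drawn for DMSO and for scrambled shRNA. With DMSO, the 214 genes of 9q before *ABL1* have a median of -1.08 and the 83 genes after it a median of 0.14.

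On chromosome 8 most of the difference lay from 40 Mb on, with bounds chosen after the values were seen. From 40 Mb to the end, 235 genes had medians of 1.22 and 1.18, 92.3% were above 0 with both controls, and 73 (31.1%) were set apart higher. These 73 were 29.2% of the 250 genes of at least 10 ppm set apart higher on all chromosomes. The 100 genes before 40 Mb had medians of -0.60 and -0.75, and most of this came from NALM-6, to which the medians were -1.04 and -1.28, compared with -0.14 and -0.06 to RS4;11. *PRKDC*, the catalytic subunit of DNA-dependent protein kinase, was at 2447 and 2329.7 ppm in BV-173, 479 and 588 in NALM-6 and 916 and 754 in RS4;11. *MCM4*, a subunit of the replicative helicase, was at 1525 and 1959 in BV-173 and at 423 to 673 elsewhere. *IKBKB*, the kinase that activates NF-kappaB, was at 167 and 182 in BV-173 and at 30.5 to 51.3 elsewhere. *YWHAZ*, a common reference gene on this chromosome, was at 2816 and 2641 in BV-173, 1.53-fold or more above each other line.

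A short stretch before 40 Mb went the same way. From *ERLIN2* to *LETM2*, 13 genes had medians of 1.97 and 1.89, and 10 were set apart higher. *EIF4EBP1*, the repressor of cap-dependent translation below mTOR, was at 698 and 655 ppm in BV-173, 200.1 and 179 in NALM-6 and 91.3 and 97.3 in RS4;11. *NSD3*, a histone methyltransferase, was at 237 and 217 against 41.0 to 88.3. The next 5 genes, from *FGFR1* to *ADAM9*, had medians of -0.54 and -0.94. Most of this came from NALM-6, to which the medians were -1.50 and -2.79, compared with -0.12 and -0.05 to RS4;11. *FGFR1* (chr8:38411143-38468635), a receptor tyrosine kinase, was at 0.535 and 0.611 in BV-173 and at 72.5 to 132 elsewhere, although *LETM2* and *NSD3* lie directly before it. From *KAT6A* on, 232 genes had medians of 1.23 and 1.18. Copy number was not measured, and its part in these levels was not tested.

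**Figure D5:**
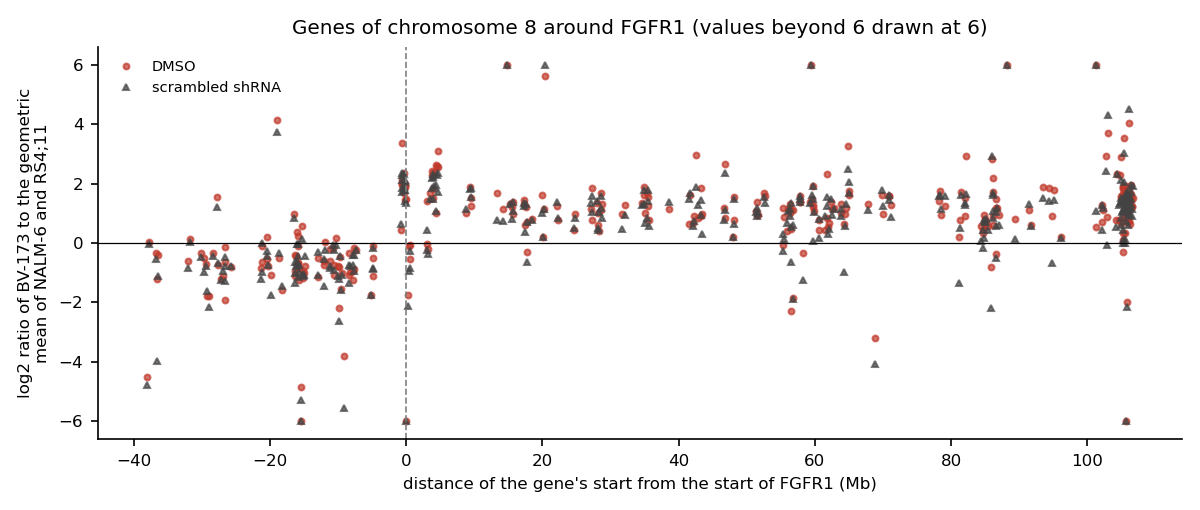
Log2 ratio of BV-173 to the geometric mean of the other lines for genes of chromosome 8, against distance from the start of *FGFR1* in Mb. Points are drawn for DMSO and for scrambled shRNA. With DMSO, the 13 genes from *ERLIN2* to *LETM2* have a median of 1.97 and the 232 genes from *KAT6A* on one of 1.23. The 5 genes from *FGFR1* to *ADAM9* have one of -0.54, most of it from NALM-6.

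At 9p21, where *CDKN2A* encodes p16 and ARF, BV-173 alone had transcripts of several neighbors. *MTAP* (chr9:21802636-21941115) and *FOCAD* were set apart higher. *FOCAD* was at 17.7 and 18.0 ppm in BV-173 and at the floor in the other lines. *KLHL9*, an adaptor of a ubiquitin ligase, was at 29.7 and 32.6 in BV-173 and unlisted or at the floor elsewhere, and *MLLT3*, a subunit of the super elongation complex, was at 10.2 and 7.36. *CDKN2A* and *CDKN2B* themselves were at most 0.219 in BV-173 and at the floor or unlisted in the other lines. Flanking genes were present in all 3 lines: the ribosomal protein gene *RPS6* was at 2346 to 3832, and *CAAP1*, an inhibitor of apoptosis, was at 23.1 to 40.1. *PLIN2* and *CNTLN* were at the floor in NALM-6 alone.

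Genes that reached 10 ppm in some control group but were not listed in every table were counted apart. *KLF11*, a transcription factor, was the 1 gene listed in both BV-173 controls and in no group of the other lines, at 21.8 and 26.3 ppm. There were 37 genes listed in all 4 control groups of the other lines and in neither of BV-173. *KIT*, the stem cell factor receptor, was unlisted in BV-173, at 42.2 and 22.9 in NALM-6 and at the floor in RS4;11. *HLA-DRB5* was at 78.3 and 65.1 in BV-173 and at most 6.39 elsewhere, and its presence depends on haplotype and its reads may be shared with *HLA-DRB1*.

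The treated cultures of the same lines gave a further reading. With palbociclib and with *CCND3* shRNA together, 344 genes (2.59%) were set apart higher in BV-173 and 1150 (8.64%) lower. Of the 393 genes higher in the controls, 318 kept at least a 2-fold gap to each other line with palbociclib, 318 with *CCND3* shRNA and 279 (71.0%) with both. Of the 944 lower genes, 833, 876 and 799 (84.6%) did. Treated and control levels of a line come from the same tables and share their scaling.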

How the data were processed

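RNA-seq of 3 B-ALL lines was analysed from 6 tables, each for 1 line and 1 treatment with its control. Reads were cleaned by the authors in SOAPnuke and aligned to hg38 in Bowtie2, after which RSEM gave expression and DESeq2 the contrasts (versions not given in the sources used here). The deposited signal is 1 level per group and gene, over the samples of the group and scaled within its table. The authors' fold changes and p-values, also deposited, were not used.

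Each level was divided by its column sum and multiplied by 1000000 (ppm), without a pseudocount. Log2 ratios of BV-173 to the geometric mean of NALM-6 and RS4;11 were computed for genes in the 3 palbociclib tables and, as the second reading, for the scrambled groups. Samples were grouped by their labels. Because there is 1 level per group, the depth and the spread per sample are unknown, and no p-value was computed. Whether samples of a group were separate cultures is not given.

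The genes named were the 15 set apart higher and the 15 lower with the largest least gap, among those of at least 10 ppm, and members of 23 gene lists. Paralogs, neighbors on chromosomes 8, 9 and 22 and unlisted genes were picked after their values were seen. Members and lists were chosen with earlier results of these data known. Genes of the Y chromosome and *XIST* were left out of the ranking, and 3 genes of the rule are not reported here. Promoter windows and positions came from RefSeq (GRCh38.p14), in which 99.8% of gene identifiers were matched. Alternatives changed the scaling, pseudocount, filter, fold and line. Python 3.11.15, numpy 2.4.6, pandas 2.3.3 and matplotlib 3.10.9 were used, and the scripts were tested on simulated data.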

Additional observations from a re-analysis of the deposited data

Results flagged for a closer look

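Members of the lists that reached 10 ppm were looked at for a BV-173 ratio of opposite sign with the 2 controls against both other lines, and 2 genes met this. *TXNIP*, a glucose-responsive regulator that FOXO factors induce, was at 78.3 ppm in BV-173, 53.3 in NALM-6 and 43.6 in RS4;11 with DMSO, and at 50.5, 95.8 and 55.9 with scrambled shRNA. BV-173 was therefore the highest line with DMSO and the lowest with scrambled shRNA, and the 2 log2 ratios differed by 1.235. *ITGA6*, a laminin-binding integrin chain, was at 65.3 in BV-173, 47.8 in NALM-6 and 26.8 in RS4;11 with DMSO, and at 12.7, 82.0 and 31.9 with scrambled shRNA. Its log2 ratios differed by 2.88. Neither difference was tested, since each group has 1 level. Over all 9963 genes of at least 10 ppm, 390 had opposite signs against both lines in this way, and in 31 of them the log2 ratios to the geometric mean lay at least 1 apart.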

How the results depend on the processing

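No paired analysis was possible because the tables give 1 level per group, and for the same reason no sample could be left out. Against 393 genes set apart higher and 944 lower, scaling by the median of ratios gave 463 and 825. Leaving the 100 highest genes out of the column sum gave 417 and 892. Levels with 1 ppm added gave 281 and 510, and levels under 3 raised to 3, chosen after seeing the data, gave 373 and 751. A filter at 10 ppm gave 250 and 510, a fold of 1.5 gave 673 and 1544, and a fold of 4 gave 144 and 450. DMSO alone gave 727 higher and 1346 lower, and scrambled shRNA alone gave 523 higher and 1784 lower. The counts over the geometric mean, 1501 and 2255, came to 935 and 1339 with 1 added, 840 and 1034 with the filter, 2421 and 3635 at 1.5-fold and 667 and 1114 at 4-fold. With scrambled shRNA in place of DMSO, the median log2 ratio was 0.91 for STAT5 targets, -1.43 for ERK feedback genes, -0.11 for pre-B-cell receptor genes, 0.39 for surface antigens, -0.91 for MHC class II, -0.71 for homing genes, 0.72 for chromosome 8 and -0.79 for chromosome 9. With levels under 3 raised to 3, an alternative chosen after seeing the data, it was 6.86 for the 9p21 genes and -1.02 for stem and progenitor genes. The filter at 10 ppm gave 0.98 for chromosome 8. Leaving out NALM-6, also chosen after seeing the data, gave 0.62, -0.71 and -0.74 for chromosomes 8, 9 and 15, and leaving out RS4;11 gave 1.17, -0.51 and -0.19. The cause of these differences was not tested. For the 83 genes that were set apart and ranked or on a list, or named in any case by the rule, 356 of 498 values under other scalings, 1 added, scrambled shRNA or either line alone moved by less than 0.71 on the log2 scale and 142 by more. None of those set apart changed sign, but the rule that picked them already fixes this for scrambled shRNA, either line alone and 1 added. Genes not set apart could change sign with scrambled shRNA, as *TXNIP* and *ITGA6* did.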
